A study of Mus musculus with 18 samples.

Results

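The mRNAs of 9 mouse genes that descend from the capsid (gag) genes of retrotransposons were followed from cells into the small extracellular vesicles (sEVs, lipid-bound packets shed by cells) of primary brain cultures. The genes are Arc, Peg10, Rtl1, Rtl5, Rtl6, Rtl8a, Rtl8b, Pnma1 and Pnma2, chosen by name for this shared origin, and all 9 were among the 54307 genes measured. The 18 libraries fall into 6 groups of 3 replicates, namely cultured mouse astrocytes, microglia and neurons and the sEVs derived from each of these 3 kinds of culture. No treatment, genotype, strain or age is given for any group, and separate cultures are not stated for the replicates in the labels, so p-values measure only the spread between these samples. RNA was taken from the sEVs and from a portion of the cells that made them, and poly(A) tails primed the cDNA. The study was designed to ask whether sEV mRNA is packaged differently by cell type.

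A retrotransposon's gag gene encodes the protein that assembles into a capsid around the element's RNA. In mammals several gag genes have been kept as single host genes: Arc, an activity-regulated gene of neurons that acts at synapses; Peg10 and the Rtl genes, which come from one family of elements and include imprinted genes needed for the placenta; and the Pnma genes, first known as antigens in paraneoplastic neurological disease. The proteins of Arc, Peg10 and Pnma2 are known to form capsids that leave cells, and those of Arc and Peg10 can carry RNA, their own mRNA included.

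Values are normalized counts, scaled by the authors to make libraries comparable, and log2 values are of the normalized count plus 1. Normalized counts added up to 36947428 to 69276566 a library, and sEV libraries held fewer genes at a value of 10 or more (7840 to 15951) than cell libraries (13494 to 18131). The labelled cell types were checked against 8 marker genes each. Summed neuron markers reached 224246 to 273445 in neurons, 12751 to 17220 in astrocytes and 125 to 355 in microglia. Astrocyte markers summed to 936940 to 1157703 in astrocytes, 135346 to 148796 in neurons and 4265 to 15438 in microglia, and microglia markers to 127683 to 144134 in microglia and at most 122 elsewhere in cells. The neuron and astrocyte cultures thus held markers of each other's type, none of the 8 at 0 in either, and the part of such RNA in the results on glia and neurons below was not tested. In microglia sEVs the neuron markers summed to 2548 and 1987 in replicates 2 and 3 and to 106 in replicate 1. In bulk samples such as these, fewer cells of a type and less RNA per cell cannot be told apart.

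Peg10 and Rtl6 were the members with far higher normalized counts in sEVs than in cells, in astrocytes and in neurons. Of these only Peg10 was called over all 18 libraries. Rtl8b was called lower in microglia sEVs and Rtl1 in neuron sEVs, and no difference was detectable for Arc. The Rtl8b difference lay at percentile 41.3 of those of all genes, and its separate value is uncertain, as described below. One linear model of all 18 libraries (limma) compared sEVs with cells within each type, with a call where the Benjamini-Hochberg adjusted p was under 0.05 over all 19612 genes tested, which include all 9 members. Rtl1 entered the test through its neuron libraries. Pnma1 was also high there, but its glial values of 13.9, 15.1 and 15.1 alone were enough for it to be tested. In astrocytes 1 of 9 members was called higher (Peg10) and 0 lower, where 8% of all genes were called higher and 18.6% lower; at an unadjusted p under 0.05 the number was also 1. In microglia 0 members were called higher and 1 lower (Rtl8b), against 5.08% and 21.2% of all genes. In neurons 1 was called higher (Peg10) and 1 lower (Rtl1), against 11.1% and 18.9%. The median log2 difference of the members was 0 in astrocytes, -1.41 in microglia and -0.10 in neurons, beside -0.60, -0.79 and -0.47 over all genes tested. The astrocyte median is the value of Rtl1, which was at 0 in every glial library. Its difference there could only be 0, so it could not be called in astrocytes or microglia, though it is counted among the 9.

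**Figure D1:**
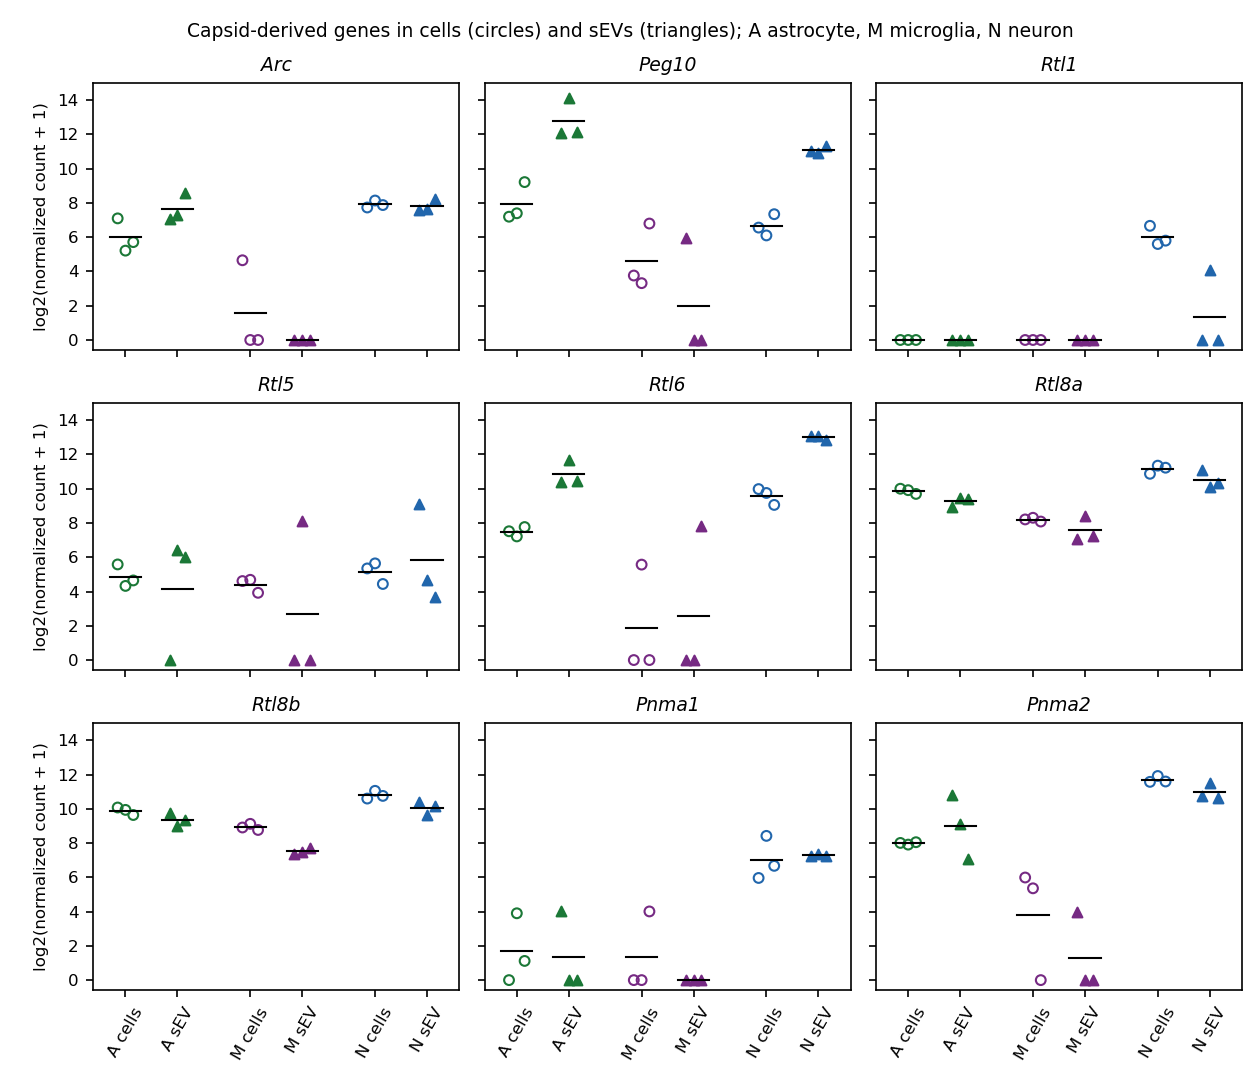
Normalized counts of the 9 genes in each library on a log2(value + 1) axis, with open circles for cells, filled triangles for sEVs and a bar at the mean of the 3 replicates. Peg10 and Rtl6 lie higher in sEVs than in cells in astrocytes and neurons, and Rtl1 is above 0 only in neuron libraries.

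Peg10 is a paternally expressed gene whose mRNA is read in 2 overlapping frames, the second reached when the ribosome slips back by 1 base on a heptamer, as in retroviruses. The heptamer is shown because it marks this retroviral mode of reading, and the codons of the zinc knuckle because that motif is the part of gag proteins known to bind RNA. Both come from the Peg10-202 transcript of GENCODE vM21, with the heptamer, in capitals, at transcript position 1477 and the codons for the 3 cysteines and 1 histidine of the knuckle, also in capitals, from position 1406.

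Peg10 slippery site: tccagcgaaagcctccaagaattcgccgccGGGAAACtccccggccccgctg
Peg10 zinc knuckle: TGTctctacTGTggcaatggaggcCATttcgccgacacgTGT

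Among 21901 protein-coding genes of that annotation, 0.347% had a zinc knuckle of this spacing (cysteine, 2 residues, cysteine, 4 residues, histidine, 4 residues, cysteine) in their coding sequence, and of the 9 members Peg10 did. The heptamer GGGAAAC in the frame that allows slipping was found in 4.76% of coding sequences, so the letters alone are not rare.

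In astrocytes Peg10 stood at 146, 167 and 594 in the cell libraries and at 4338, 18134 and 4483 in the sEV libraries. Every sEV library was above every cell library, and sEV replicate 2 stood well above the other sEV replicates. The mean was 29.7-fold higher in sEVs, and the log2 difference was 4.85 ± 1.35 (SE), with a limma adjusted p of 0.0155 and rank 117 from the highest of 19612 genes. In neurons Peg10 stood at 93.4, 67.8 and 161 in cells and at 2052, 1954 and 2539 in sEVs. These groups lay far apart, and the sEV replicates were close to each other. The mean was 20.3-fold higher in sEVs and the log2 difference 4.41 ± 1.35 (adjusted p = 0.0222, rank 262). With 15.3% of all genes entirely above the cell libraries in astrocyte sEVs and 22.7% in neuron sEVs, separation of 3 against 3 libraries was common. In the fit of all 18 libraries the calls were near the threshold: the astrocyte call ended without astrocyte cell replicate 1 (adjusted p = 0.0578), cell replicate 2 (0.0522) or sEV replicate 2 (0.0586, log2 difference 4.17). The neuron call ended without neuron cell replicate 1 or 2 (0.0601, 0.0697) or without sEV replicate 1, 2 or 3 (0.0539, 0.0509, 0.0614). Fitted to only the 6 libraries of a type, limma called Peg10 higher in astrocytes (adjusted p = 0.00353) and in neurons (adjusted p = 5.05e-05).

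Microglia gave another picture for Peg10. It stood at 12.6, 8.97 and 110 in microglia and at 59.9, 0 and 0 in their sEVs, so that cells and sEVs overlapped. The log2 difference was -2.65 ± 1.35 (adjusted p = 0.174), and without sEV replicate 1, the only sEV replicate above 0, it was -4.63 (adjusted p = 0.00304). The sEV effect on Peg10, tested as a difference of differences, was larger in astrocytes than in microglia by 7.50 ± 1.91 (adjusted p = 0.0165) and smaller in microglia than in neurons by -7.06 ± 1.91 (adjusted p = 0.0163). Between astrocytes and neurons it differed by 0.44 ± 1.91 (adjusted p = 0.982), with a 95% confidence interval of -3.65 to 4.53. These differences rest in part on the microglia sEV libraries at 0, and their size on the pseudocount.

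The imprinted neighbours of Peg10 and Rtl1 had log2 differences in both directions, and those that were called were lower. Of 9 such genes 8 could be tested. In astrocytes 0 were called higher and 4 lower (median -3.50), where all genes gave 8%, 18.6% and a median of -0.60. In microglia the counts were 0 and 1 (median -1.56; all genes 5.08%, 21.2% and -0.79), and in neurons 0 and 4 (median -4.35; all genes 11.1%, 18.9% and -0.47). Sgce, the sarcoglycan gene that shares a promoter region with Peg10, stood at 4904, 4416 and 7539 in astrocytes and at 410, 662 and 433 in their sEVs, the reverse order to Peg10. In neurons Sgce stood at 3657, 3445 and 3967 in cells and at 232, 202 and 252 in sEVs, again without overlap. Its log2 difference was -3.48 ± 1.64 in astrocytes (adjusted p = 0.138) and -4.01 ± 1.64 in neurons (adjusted p = 0.0808). Ppp1r9a, a gene of the same imprinted region that encodes a neuronal actin-binding protein, lay on the side of Peg10. It stood at 1336, 1229 and 1430 in astrocytes and at 5076, 8109 and 3403 in their sEVs, and at 4567, 2920 and 3705 in neurons and 6325, 7335 and 5172 in their sEVs. Neither pair of groups overlapped, but the log2 differences of 1.97 ± 0.89 and 0.76 ± 0.89 were not called (adjusted p = 0.119 and 0.588). Sgce was called lower in microglia, where it differed by -4.75 ± 1.64 (adjusted p = 0.045). It stood at 1587, 1792 and 2421 in microglia and at 0, 567 and 619 in their sEVs. The size of that difference rests in part on sEV replicate 1, at 0, and on the pseudocount. The mean of Sgce was 4.89-fold higher in cells in microglia, beside 11.2-fold in astrocytes and 16.1-fold in neurons. The SE of 1.64 is shared by the 3 types. Pon2, a paraoxonase gene of the same imprinted region, fell by 3.44 in astrocytes and by 1.93 in neurons (limma adjusted p = 0.000199 and 0.0115). Meg3, a noncoding RNA of the imprinted region that holds Rtl1, averaged 259507 ± 49079 in neurons and 635 ± 325 in neuron sEVs (SD, n = 3 each), and its log2 difference was -8.77 ± 2.40 (adjusted p = 0.0116).

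Rtl6, a short member of the Rtl family whose protein is known from mouse brain microglia, had the second large excess in sEVs. In astrocytes it stood at 182, 148 and 216 in cells and at 1356, 3213 and 1400 in sEVs. Neurons held more of it, at 1009, 861 and 531 in cells and 8632, 8704 and 7367 in sEVs. In both types every sEV library was above every cell library, the means being 10.9-fold and 10.3-fold higher. Microglia cells stood at 0, 46.5 and 0 and microglia sEVs at 0, 0 and 222, with no order between them. No member had all microglia sEV libraries above the cells, as 8.45% of all genes did. Over the 18 libraries the log2 differences were 3.34 ± 1.74 in astrocytes (adjusted p = 0.181) and 3.41 ± 1.74 in neurons (adjusted p = 0.164), so neither was called, and that SE is shared with the microglia groups, whose values ran from 0 to 222. When limma was fitted to only the 6 libraries of a type, Rtl6 was called higher in astrocytes (adjusted p = 0.00237) and in neurons (adjusted p = 2.2e-05). It was also called in both types without microglia sEV replicate 3 (adjusted p = 0.0359 and 0.0295). That replicate holds the value of 222.

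**Figure D2:**
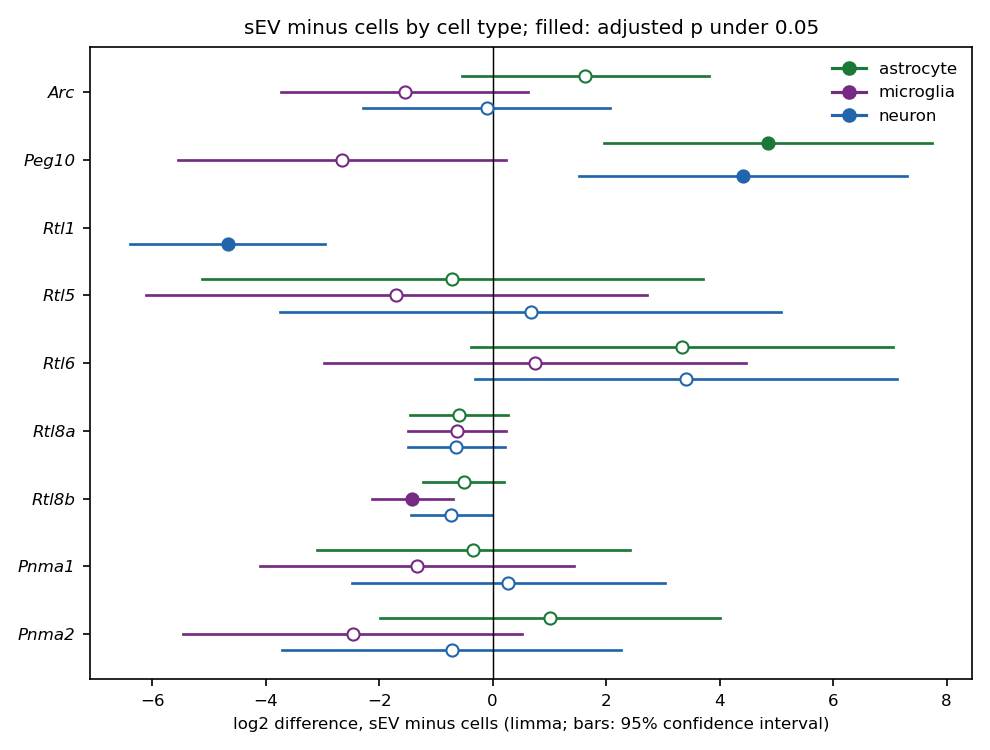
Log2 difference of sEVs minus cells for the 9 genes in astrocytes, microglia and neurons, as limma estimates with 95% confidence intervals; filled points have an adjusted p under 0.05, and Rtl1 is not drawn in the glia, where every library is at 0. Peg10 stands at 4.85 in astrocytes and 4.41 in neurons with intervals above 0, and the Rtl6 intervals in the same types reach just below 0.

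Rtl8a and Rtl8b are X-linked genes of the same family that lie close together and encode proteins of little more than the gag matrix and capsid part. Their annotated coding sequences, 339 bases each, were identical at every base, while that of the third copy, Rtl8c, matched 80.7% of 342 aligned columns. A stretch of 90 coding bases is shown to make visible what counting had to tell apart, with capitals where Rtl8c differs from the other copies.

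Rtl8a: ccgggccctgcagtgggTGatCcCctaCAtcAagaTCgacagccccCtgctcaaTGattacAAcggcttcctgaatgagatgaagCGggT
Rtl8b: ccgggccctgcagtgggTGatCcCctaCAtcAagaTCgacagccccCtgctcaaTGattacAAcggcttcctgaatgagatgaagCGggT
Rtl8c: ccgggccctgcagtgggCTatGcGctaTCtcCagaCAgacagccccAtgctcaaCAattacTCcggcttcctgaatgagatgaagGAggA

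Of the 31-base words of the Rtl8a transcript 90.2% occur in another gene, and of the Rtl8b transcript 85.1%, most often in each other and next in Gm14597. Their separate values are therefore uncertain. The sum of both does not depend on the split between them, but words shared with Gm14597 leave it uncertain too. That sum was 1889 ± 243 in astrocytes and 1305 ± 74.4 in their sEVs, 783 ± 83.8 in microglia and 392 ± 118 in their sEVs, and 4086 ± 650 in neurons and 2626 ± 840 in their sEVs (SD, n = 3 each). All sEV libraries were below all cell libraries in astrocytes and in microglia, and the neuron groups overlapped. A sum lower in sEVs was the commoner direction among all genes too, since 27.2% of them lay entirely below the cell libraries in astrocyte sEVs, 24.9% in microglia sEVs and 34.2% in neuron sEVs.

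Taken apart, Rtl8b stood at 479, 556 and 434 in microglia and at 166, 178 and 205 in their sEVs. It fell by 1.41 ± 0.33 on the log2 scale there (adjusted p = 0.00548); the call ended when limma was fitted to only the 6 microglia libraries (adjusted p = 0.167) and with quantile normalization (log2 difference -0.48, adjusted p = 0.431). In astrocytes Rtl8b differed by -0.51 ± 0.33 (adjusted p = 0.296) and in neurons by -0.73 ± 0.33 (adjusted p = 0.117). Rtl8a differed by -0.59 ± 0.40, -0.62 ± 0.40 and -0.64 ± 0.40 in astrocytes, microglia and neurons, with adjusted p-values of 0.316, 0.294 and 0.27. These 3 values lie close to the medians of all genes, -0.60, -0.79 and -0.47. In microglia Rtl8a was called lower without microglia sEV replicate 2 (log2 difference -1.05, adjusted p = 0.0397). A fit chosen once the marker values had been seen left out sEV replicates 2 and 3, whose neuron markers were higher. With only microglia sEV replicate 1 in that group, the Rtl8a difference was -1.15. Rtl8c, counted more separately, stood at 1086, 1295 and 1446 in neurons and 440, 356 and 431 in neuron sEVs, and fell by 1.64 ± 0.59 (limma adjusted p = 0.0487).

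Rtl1, a paternally expressed gene known for its part in the placenta and in muscle, was a neuron-culture transcript in these data. It was listed at 0 in every astrocyte and microglia library, cells and sEVs alike, and stood at 100, 47.6 and 54.6 in neurons. Neuron sEVs held 0, 15.8 and 0, below all neuron cell libraries. The neuron mean was 12.8-fold higher in cells, and Rtl1 fell by 4.66 ± 0.80 on the log2 scale (adjusted p = 0.000398), a size that rests on the pseudocount. That SE is shared with the glial groups, which have no spread at 0, so it and the adjusted p are too small. When limma was fitted to only the 6 neuron libraries, the adjusted p was 0.0124. Of the 31-base words of its transcript 6.80% also occur in microRNA genes such as Mir433, which belong to the transcript from its opposite strand, and the library kit does not mark strand.

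Rtl5, an X-linked member of the family, was low and irregular. Cell libraries stood between 14.2 and 48.9 in all 3 types. Its sEV libraries stood at 0, 86.0 and 62.5 in astrocytes, at 0, 278 and 0 in microglia and at 546, 24.5 and 11.8 in neurons. Single sEV libraries thus held the highest values, and cells and sEVs overlapped in every type. The log2 differences were -0.71 ± 2.07, -1.70 ± 2.07 and 0.67 ± 2.07 in the order above (adjusted p = 0.884, 0.643 and 0.87), so a change of several log2 units in either direction was not detectable.

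Arc, the immediate early gene whose protein forms capsids at synapses, was present in neuron sEVs, with no detectable difference from neurons. Neurons stood at 212, 281 and 234 and neuron sEVs at 188, 197 and 303, overlapping ranges around means of 242 ± 35.4 and 229 ± 64.4 (SD, n = 3 each). The log2 difference was -0.10 ± 1.02 (adjusted p = 0.977), with a 95% confidence interval of -2.28 to 2.07. In astrocytes Arc stood at 136, 36.2 and 51.4 in cells and at 135, 153 and 379 in sEVs. The sEVs were above cells there except that sEV replicate 1, at 135, lay just under cell replicate 1, at 136, and the log2 difference of 1.63 ± 1.02 was not called (adjusted p = 0.271). In microglia Arc was at 24.2 in 1 cell library and listed at 0 in the others, and in sEVs it was listed at 0 throughout.

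Other genes induced by neuronal activity are given beside Arc, without a test of a difference from it. Of 11 such genes all were tested. In astrocyte sEVs 1 rose and 4 fell (median -2.08), where 8% of all genes were called higher and 18.6% lower with a median of -0.60. In microglia sEVs 0 rose and 4 fell (median -2.01; all genes 5.08%, 21.2% and -0.79). In neuron sEVs 0 rose and 3 fell (median -0.76; all genes 11.1%, 18.9% and -0.47), and 8 were not called, as Arc was not. The transcription factor genes Fos and Junb fell in neurons, with log2 differences of -2.77 ± 0.69 and -5.39 ± 1.28 (adjusted p = 0.00651 and 0.00477), and in astrocytes, with -2.68 ± 0.69 and -5.96 ± 1.28 (adjusted p = 0.00979 and 0.00302). Fos stood at 1632, 1177 and 1109 in neurons and 53.6, 462 and 265 in their sEVs, without overlap. Homer1, a scaffold gene of the synapse, rose in astrocyte sEVs, with a log2 difference of 1.99 ± 0.46 (adjusted p = 0.00513).

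Pnma2, whose protein forms capsids without a membrane, was high in neurons and far lower in the glia. Neurons stood at 3043, 3859 and 3085 and neuron sEVs at 1747, 2860 and 1611, so the sEVs were lower in every library by a modest margin. The log2 difference of -0.72 ± 1.40 was not called over the 18 libraries (adjusted p = 0.771), but it was called lower with only the 6 neuron libraries (adjusted p = 0.038). Astrocytes stood at 256, 239 and 264 and their sEVs at 1781, 562 and 133, a spread that reached from below to far above the cells (1.01 ± 1.40, adjusted p = 0.668). Microglia stood at 62.5, 40.0 and 0 and their sEVs at 14.5, 0 and 0. There the log2 difference was -2.47 ± 1.40 (adjusted p = 0.227), and without microglia cell replicate 3, the one at 0, it was -4.36 (adjusted p = 0.0146).

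Pnma1 was close to absent outside the neuron cultures. It stood at 61.4, 341 and 101 in neurons and at 153, 163 and 153 in neuron sEVs, where the replicates were far closer to each other than in cells. The log2 difference was 0.28 ± 1.29 (adjusted p = 0.924). In astrocytes and microglia no library exceeded 15.1. Of its 31-base words 15.2% also occur in the neighbouring gene Dnal1.

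Averaged over the 3 types with equal weight, 1 member was called higher in sEVs and 3 lower, against 12% and 37.1% of all genes, and the members' median was -0.58 beside -0.93 over all genes. Peg10 was higher by 2.21 ± 0.78 (adjusted p = 0.0298), although microglia pointed the other way, and this call was lost in 9 of 25 alternatives (adjusted p 0.000397 to 0.0707), among them leaving out astrocyte cell replicate 1 or 2, astrocyte sEV replicate 2, microglia cell replicate 1 or 2, neuron cell replicate 2 or neuron sEV replicate 3. Rtl6 stood at 2.50 ± 1.0 (adjusted p = 0.0519) and was called without microglia cell replicate 2 or microglia sEV replicate 1 or 2 (0.0118, 0.0228 and 0.0243). Rtl1, Rtl8a and Rtl8b were lower, at -1.55 ± 0.46, -0.62 ± 0.23 and -0.88 ± 0.19 (adjusted p = 0.0123, 0.0392 and 0.00152), with quantile normalization ending all 3 calls. For Rtl1 this mean and its SE include the glia, where every library is at 0. The call of Rtl8a also ended (adjusted p 0.0508 to 0.0776) without astrocyte cell replicate 1 or 2, astrocyte sEV replicate 1, any microglia cell replicate, microglia sEV replicate 1 or 3, neuron cell replicate 2 or 3, or neuron sEV replicate 2 or 3. The model also called Rtl1 between the glia and neurons, at 4.66 ± 1.14 (adjusted p = 0.0265 against astrocytes and 0.00875 against microglia). With every glial library at 0 there is no sEV effect in the glia to compare, so these values restate the neuron difference of -4.66; the call against astrocytes was lost without any one of the astrocyte or neuron cell libraries or without neuron sEV replicate 1 or 3 (adjusted p up to 0.0799). Counted with Rtl1, the sEV effect was called between types for 1 member higher and 0 lower in astrocytes against microglia (8.77% and 4.53% of all genes), for 1 and 0 in astrocytes against neurons (2.47% and 2.63%) and for 1 and 1 in microglia against neurons (7.82% and 12.9%). Without microglia cell replicate 3 the effect on Pnma2 also differed between astrocytes and microglia (adjusted p = 0.0375), and without microglia sEV replicate 3 that on Rtl6 differed between microglia and both other types (adjusted p = 0.0464 and 0.0333).

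In cells, most members followed the order neurons, astrocytes, microglia. Rtl1 and Pnma1 entered the fit of the 9 cell libraries through the neurons, the group where they are high. Between microglia and neurons 7 of 9 were called lower in microglia and 0 higher, all except Peg10 and Rtl5, where 51.8% of 18410 genes tested were called lower and 19.9% higher. Rtl8a was lower in microglia than in neurons by -2.95 ± 0.18 (adjusted p = 1.41e-06) and Rtl8b by -1.87 ± 0.19 (adjusted p = 3.47e-05). The median log2 difference over all genes tested was -1.26 in that pair, 0.84 for astrocytes minus microglia and -0.25 for astrocytes minus neurons. Between astrocytes and microglia 6 were called higher in astrocytes and 0 lower, against 43.6% and 20.8%, and the 6 were Arc, Peg10, Rtl6, Rtl8a, Rtl8b and Pnma2. Between astrocytes and neurons 0 were called higher and 4 lower in astrocytes (Rtl1, Rtl8a, Rtl8b and Pnma1), against 10.4% and 22.1%. Rtl8a differed there by -1.28 ± 0.18 (adjusted p = 0.000845). Peg10 pointed the other way in that pair, at 1.27 ± 0.96 higher in astrocytes (adjusted p = 0.363), with a 95% confidence interval of -0.94 to 3.47. Single libraries decided some of these calls. Without microglia cell replicate 1, 2 or 3, limma also called Arc, Rtl6 or Pnma2 lower in astrocytes than in neurons, with adjusted p-values of 0.0472, 0.00807 and 4.14e-05; without replicate 1 Pnma2 was called too (0.0331), and without replicate 3 Peg10 was called lower in microglia than in neurons (0.00542). The call of Pnma2 between astrocytes and microglia ended without astrocyte cell replicate 1, 2 or 3 (0.0538, 0.0508 and 0.0535), and that of Peg10 without replicate 3 (0.0552). The call of Pnma1 between astrocytes and neurons ended without astrocyte cell replicate 1 or 3 or neuron cell replicate 2 (0.0625, 0.0542 and 0.065). With quantile normalization Arc, Peg10, Rtl8b and Pnma2 were no longer called between astrocytes and microglia (0.0784, 0.113, 0.141 and 0.0962), nor Pnma1 between microglia and neurons (0.0983).

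Among sEVs, most members were called lower in microglia than in either other type. Rtl1 was too low in sEVs to be tested, so 8 members entered the fit of the 9 sEV libraries. Pnma1 entered it through the neuron sEVs, where it is high, at 153, 163 and 153. It stood at 15.1, 0 and 0 in astrocyte sEVs, and its SE is shared with the microglia sEVs, which have no spread at 0. In microglia sEVs 7 of 8 were called lower than in neuron sEVs and 0 higher, all except Rtl5, against 45.3% and 13.6% of 15514 genes tested. Against astrocyte sEVs 6 were called lower in microglia sEVs and 0 higher (12.9% and 26.6% of genes were called higher and lower in microglia sEVs). Rtl8b differed between astrocyte and microglia sEVs by 1.86 ± 0.43 (adjusted p = 0.0101) and between microglia and neuron sEVs by -2.55 ± 0.43 (adjusted p = 0.00138); with quantile normalization both calls were lost (0.62 with adjusted p = 0.515, and -1.32 with 0.142). Rtl8a was higher in astrocyte than in microglia sEVs by 1.70 ± 0.53 (adjusted p = 0.0344), a call that ended without astrocyte sEV replicate 2 or 3, microglia sEV replicate 1 or 3 or neuron sEV replicate 2 or 3 (0.0533 to 0.0863). It ended with quantile normalization too (0.627), as did the calls of Pnma2 between astrocyte and microglia sEVs (0.147) and of Arc and Pnma1 between microglia and neuron sEVs (0.0931 and 0.258). For Arc and Pnma1, listed at 0 in all microglia sEV libraries, no fold is given. Between astrocyte and neuron sEVs 1 member was called lower, Pnma1 (adjusted p = 0.00653), and 0 higher, against 11.8% and 3.13% of genes; that call was lost without neuron sEV replicate 1, 2 or 3 (adjusted p = 0.071, 0.0643 and 0.062) and with quantile normalization (0.153). Rtl6 was 2.17 ± 1.91 lower in astrocyte than in neuron sEVs on the log2 scale (difference -2.17, adjusted p = 0.558), and without microglia sEV replicate 3 the adjusted p was 0.0225.

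Levels of different genes were compared per length, as normalized counts per kb of the longest annotated transcript (1195 bases for Rtl8a to 6667 for Peg10). In neurons the order of means was Rtl8a, 1917 ± 315 per kb, Rtl8b, 1458 ± 237, Pnma2, 603 ± 83.2, Rtl6, 181 ± 55.3, Arc, 79.3 ± 11.6, Pnma1, 71.1 ± 64.2, Peg10, 16.1 ± 7.25, Rtl1, 10.6 ± 4.51, and Rtl5, 7.83 ± 3.09 (SD, n = 3 each). Rtl8a and Rtl8b overlapped, as did Arc with Pnma1 and Peg10 with Rtl1 and Rtl5. In neuron sEVs Rtl6 led at 1861 ± 170 per kb, overlapping Rtl8a at 1278 ± 486 but not Rtl8b at 892 ± 232, and Peg10, at 327 ± 46.9, reached the range of Pnma2 at 376 ± 124. In astrocytes Rtl8a and Rtl8b led at 785 ± 83.3 and 771 ± 116, and Pnma2, Peg10 and Rtl6 lay together at 45.9 ± 2.27, 45.3 ± 37.9 and 41.1 ± 7.75. Astrocyte sEVs held most Peg10, at 1348 ± 1189 per kb with a range of 651 to 2720, which overlapped Rtl8b and Rtl6. In microglia Rtl8b and Rtl8a stood at 397 ± 50.1 and 246 ± 18.7 per kb and every other member's mean was at most 6.58.

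**Figure D3:**
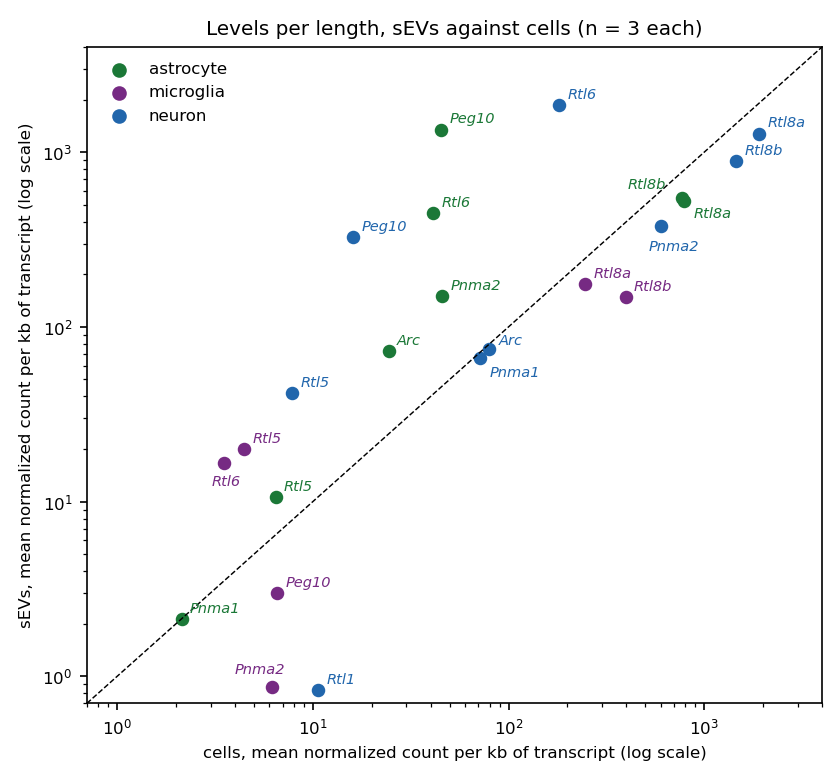
Mean normalized count per kb of transcript in sEVs against cells, both on log axes, by cell type (n = 3 libraries a mean); the dashed line marks equal levels, and genes with a mean of 0 on either axis are not drawn. Peg10 and Rtl6 of astrocytes and neurons stand far above the line, and Rtl8a and Rtl8b lie below it in all 3 types.

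Of 16 other genes of retroelement origin, 14 could be tested. In astrocytes 1 was called higher and 0 lower (median 0; all genes 8%, 18.6% and -0.60), and in microglia 0 and 0 (median 0; all genes 5.08%, 21.2% and -0.79), with 0 also at an unadjusted p under 0.05. In neurons 1 was called higher and 2 lower (median -0.46; all genes 11.1%, 18.9% and -0.47). Nynrin, Pnma3, Pnma8a, Pnma8c, Rtl4 and Rtl9 were at 0 in every microglia library, and Rtl3 and Rtl4 in every astrocyte library. Their differences there could only be 0, and they could not be called. The medians of 0 in astrocytes and microglia are values of such genes, so they do not compare sEVs with cells. The shares called higher were near those of all genes. The gene called higher in both astrocytes and neurons was Nynrin, a large gene with retroviral sequence. It stood at 243, 311 and 383 in astrocytes and at 3824, 10709 and 5142 in their sEVs, and at 159, 57.5 and 158 in neurons and 5427, 5573 and 6585 in their sEVs. Neither range overlapped, and Nynrin was listed at 0 in every microglia library. Its log2 differences were 4.27 ± 0.55 in astrocytes and 5.68 ± 0.55 in neurons (adjusted p = 4.24e-05 and 1.65e-06), beside 4.85 and 4.41 for Peg10. Of the 31-base words of its transcript 56.0% also occur in another annotated gene, Gm26751, so its value is uncertain. Moap1, a Pnma relative linked to apoptosis, fell by 2.73 ± 0.65 in neurons (adjusted p = 0.00457), and 88.6% of its words occur in Gm20604. Of the envelope-derived genes Syna and Synb, Syna was tested and not called, at -1.56 ± 1.32 in neurons (adjusted p = 0.43).

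**Figure D4:**
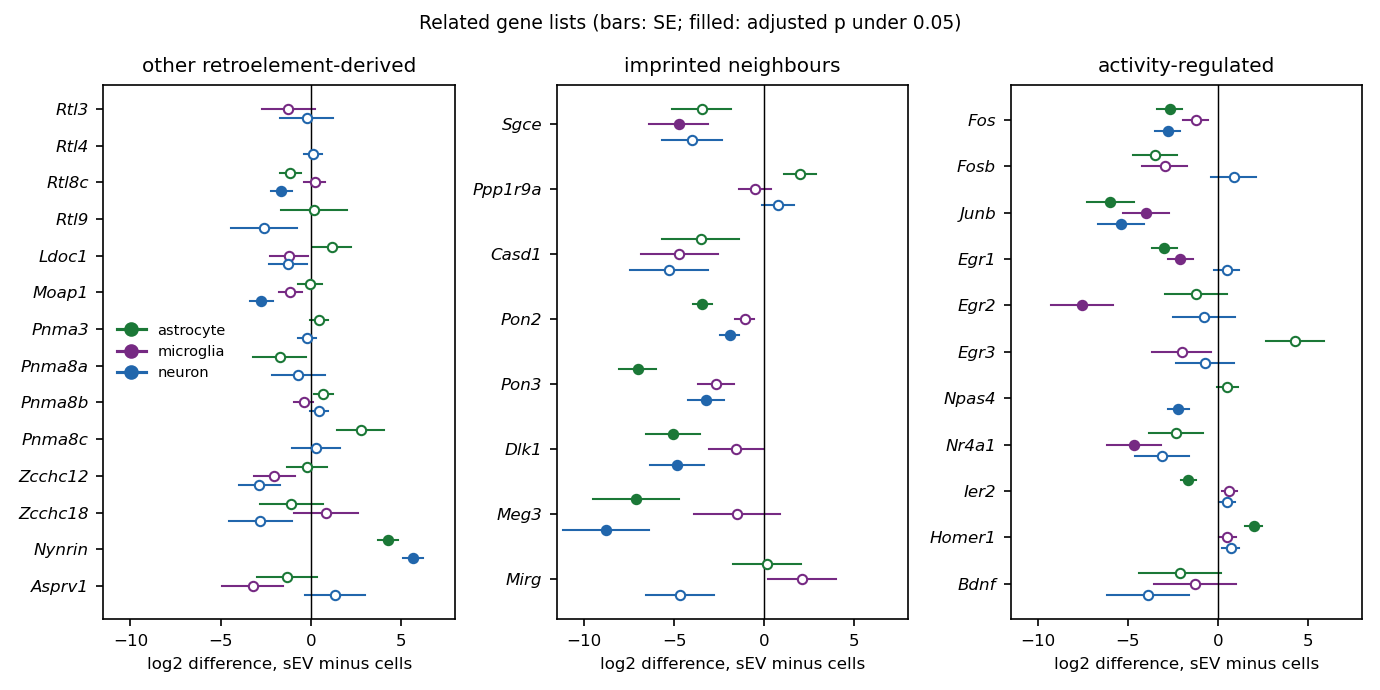
Log2 difference of sEVs minus cells for 3 related lists, with SE bars and filled points at an adjusted p under 0.05; genes at 0 in all libraries of a type are not drawn there. Nynrin is the filled gene on the positive side among retroelement-derived genes, and the imprinted neighbours lie mostly on the negative side.

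The zinc knuckle of Peg10 was also present in the coding sequences of 5 of the related genes listed, which are printed to show what they share with it; the capitals again mark the codons for cysteine and histidine.

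Rtl3 zinc knuckle: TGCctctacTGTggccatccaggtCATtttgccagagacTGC
Rtl4 zinc knuckle: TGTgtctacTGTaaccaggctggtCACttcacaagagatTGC
Pnma3 zinc knuckle: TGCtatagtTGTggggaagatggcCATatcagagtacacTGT
Zcchc12 zinc knuckle: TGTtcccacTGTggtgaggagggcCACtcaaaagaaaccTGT
Zcchc18 zinc knuckle: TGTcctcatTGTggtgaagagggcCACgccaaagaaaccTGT

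The levels of these genes differed widely. Zcchc18 stood at 19550, 19773 and 21618 in neurons and at 2998, 2583 and 3175 in neuron sEVs, and Zcchc12 at 3853, 3522 and 4036 and at 500, 470 and 606. In both, every neuron sEV library was below the cells, but neither was called in neurons (adjusted p = 0.266 and 0.0704), and Zcchc12 was called lower in the mean over types (adjusted p = 0.0436). Pnma3 stood at 153, 183 and 177 in neurons and at 231, 98.7 and 139 in neuron sEVs, which overlapped. Rtl4 was listed at 0 in every glial library, and Rtl3 in every astrocyte library, so sEVs and cells could not be compared for them there. The part of the motif in any of these values was not tested.

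The genes most like each member were ranked by Pearson correlation of log2 values over the 18 libraries, which fall into 6 groups, so a correlation mainly reflects the group pattern. Nearest to Peg10 were Gnpat (r = 0.948), Rpp25l (0.942) and Usp49 (0.94). Nearest to Rtl6 were Samd14 (0.977), Khdrbs3 (0.971) and Homer2 (0.955), and nearest to Arc were Zfp689 (0.981), Septin3 (0.978) and Ccdc92 (0.978). Rtl8a went closest with the synaptic vesicle gene Vamp2 (0.969), Rtl8b with Fam131a (0.969), Pnma1 with Hecw1 (0.943), Pnma2 with Rcan2 (0.959), Rtl5 with Map10 (0.872) and Rtl1 with Acot3 (0.999). Among the members themselves the closest pairs were Rtl8a with Rtl8b (0.921) and Arc with Pnma2 (0.899), and Peg10 with Rtl6 gave 0.674.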

How the data were processed

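Poly(A) RNA was measured in 18 libraries of 6 groups. The table deposited by the authors gives a normalized count, treated here as a signal value, for 54307 genes in each library; Salmon 1.8.0, DESeq2 and the build GRCm39 are named for it, per the submitters' processing notes. Whole reads could not be recovered from these signal values: 2.88 to 7.91% of values below 100 were whole multiples of the commonest low value (tolerance 0.001), so no count model was run and reads behind a value are estimates (30657509 to 77761362 a library). Molecular identifiers are not named in the labels' protocols, so reads are not independent molecules.

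Differences were computed on log2(value + 1) with limma 3.58.1 in R 4.3.3 (eBayes with a trend). One fit of 18 libraries gave sEVs against cells per type, their mean and the differences between types; fits of 9 cell and of 9 sEV libraries gave the type pairs. Tested were genes that reached 10 in at least 3 of a fit's libraries, with Benjamini-Hochberg adjustment over all of them within a contrast and a threshold of 0.05. The code was tested on simulated data. Same-numbered replicates of cells and sEVs did not deviate together (r from -0.0396 to 0.0445, 0 of 9 pairs over 0.1). With 3 replicates a group this cannot show whether they came from the same culture, which the labels do not say.

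Named are all members in every comparison, for each related list at most 4 genes of smallest p, and for each member the most alike of 5 genes by correlation. Sgce, Ppp1r9a, Syna and the genes with a zinc knuckle are named beyond that rule, with their values in view. The members and lists were chosen with earlier results of these data known. Alternatives were other pseudocounts, no filter, equal totals, quantile normalization, library weights, a replicate block, other sets of libraries and each library left out. Sequences, transcript lengths and shared 31-base words come from GENCODE vM21 (GRCm38), which is not the build of the table, so no coordinates are given; all 9 members matched by symbol.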

Additional observations from a re-analysis of the deposited data

Results flagged for a closer look

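The effect of sEVs against cells differed between cell types for Peg10, tested as a difference of differences in limma. The difference between astrocytes and microglia was 7.50 log2 units (adjusted p = 0.0165) and that between microglia and neurons -7.06 (adjusted p = 0.0163). Every astrocyte and neuron sEV library was above the cells, and microglia sEVs stood at 59.9, 0 and 0. For Rtl1 the same test gave 4.66 between astrocytes and neurons (adjusted p = 0.0265) and between microglia and neurons (adjusted p = 0.00875). Every glial library was at 0, so these values restate the neuron difference and compare no effect in the glia.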

How the results depend on the processing

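Of the 9 genes' differences between sEVs and cells, Peg10 in astrocytes and neurons and Rtl6 in the same types stayed positive, and Rtl1 in neurons negative, under all alternatives run. Rtl1 in neurons was called in all 26 (adjusted p 1.25e-07 to 0.0124). Peg10 was called in 23 of 26 in astrocytes and 20 of 26 in neurons (adjusted p 0.000755 to 0.0586 and 5.05e-05 to 0.0697). Rtl6 was called in 4 and 5 of 26 (adjusted p 0.00237 to 0.327 and 2.2e-05 to 0.314). Quantile normalization turned the sign of Rtl1 in the mean (from -1.55 to 0.12, adjusted p = 0.771). It lifts zeros to a tied value, and Rtl1, at exactly 0 otherwise, became 1.92 in microglia (0.0166) and -1.32 for astrocytes against microglia in cells (0.0437). Rtl5 turned from -0.74 to 2.65 for microglia against neurons in cells (0.00999). It moved the median of all genes by 0.755, 1.05 and 0.55 in astrocytes, microglia and neurons, and the share of calls that were higher from 30.1, 19.4 and 37.1% to 49.5, 55.2 and 51.2%. The cause of the other changes was not tested.

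The number of members called, in the order astrocytes, microglia, neurons and mean for sEVs against cells, was 1, 1, 2 and 4. It was 2 in astrocytes with a pseudocount of 10, quantile normalization or only the 6 libraries, which gave 0 in microglia and 5 in neurons (9383 genes), and 2 in the mean with quantile normalization. Library weights gave 4 members and 9158 genes in neurons, 3384 genes in microglia, 1699 genes for the difference of astrocytes and microglia and 1 member for that of microglia and neurons. The fit without microglia sEV replicates 2 and 3, added after seeing the data, left only replicate 1 in that group, so no number called is given. For type pairs, a pseudocount of 10 gave 7 members for astrocytes against neurons in cells. Quantile normalization gave 3 for astrocytes against microglia in cells and 3 in sEVs, 0 for astrocytes against neurons in sEVs and 4 for microglia against neurons in sEVs. One fit of all 18 libraries gave 3148 genes for astrocytes against neurons in cells, and 2 members and 4176 genes in sEVs.

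With a replicate block, cells and sEVs of the same number were treated as pairs, which the labels neither state nor exclude. Then 1 member was called in neurons, 2 in the mean, and 0, 0 (566 genes) and 1 in the differences of astrocytes and microglia, astrocytes and neurons, and microglia and neurons. Peg10 in neurons had a limma adjusted p of 0.0555. For Peg10 it was 0.0609 in the mean, 0.0574 for the difference of astrocytes and microglia and 0.0503 for that of microglia and neurons.

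Leaving out single libraries gave 0 to 2 members in astrocytes, 1 to 2 in microglia, 1 to 3 in neurons and 2 to 5 in the mean. The same fits gave 1 to 2, 0 to 1 (567 to 1407 genes) and 2 to 3 for the differences in that order, 4 to 6, 2 to 6 and 6 to 8 for the pairs in cells, and 5 to 6, 0 to 2 (452 to 2557 genes) and 7 to 7 in sEVs. Genes for astrocytes against neurons in cells ran from 4125 to 6142. A group of 2 libraries was assumed to vary like the others. Values near 0 in single libraries limit Rtl5, Pnma1 and all microglia sEV results.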
